A study of Mus musculus with 18 samples.

Results

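Intestinal tumours of mice whose Stat3 gene was floxed but not deleted were compared with intestinal epithelial cells of mice with the same Stat3 genotype. The arrays were chosen by label alone: 3 of isolated epithelial cells (replicates 1 to 3), 3 of tumours from males (replicates 7 to 9) and 3 of tumours from females (replicates 13 to 15), 9 of the 18 arrays of the series. The series asked what loss of Stat3 from the gut epithelium does to tumours of the APCmin mouse, which carries 1 mutant Apc allele, and its other 9 arrays hold the same tissues after deletion of Stat3 by a Cre recombinase driven by the Villin promoter. In the control groups described here Stat3fl/fl mice were used, and no Cre is named for them. Per the series text the tumours arose in Stat3flox/flox APCmin/+ mice. No age is labelled for any group, and for the epithelial cells the labels are also silent on sex, gut segment and the Apc allele. The labels conflict on the tumours: the sample descriptions call them colorectal and induced by azoxymethane and dextran sulfate, and carry the same words for the epithelial cells, whereas the series text describes APCmin tumours that form mainly in the small intestine. The epithelial cells were isolated and the tumours are labelled as tissue, so tissue, preparation and any difference in animals or segment cannot be told apart in any value below.

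In the normal gut, WNT signals from the crypt floor keep stem cells dividing, and cells that move up onto the villus stop dividing and make the enzymes and transporters of absorption. APC belongs to the complex that marks beta-catenin for destruction; when APC is lost, beta-catenin enters the nucleus and switches on WNT target genes with TCF/LEF factors. STAT3 is the transcription factor that carries signals of the IL-6 and IL-22 cytokine families, and it drives acute-phase genes.

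Values are log2 expression, so a difference of 1 is 2-fold, and each difference is tumours minus epithelial cells with its standard error (SE). Tumour replicate 8 stood apart: on the second principal component it lay at -84.79 while the other tumours lay between -2.61 and 21.60, and its mean correlation with the other tumours was 0.960 against 0.975 to 0.982 for the rest. Tumour replicates 9 and 15 carried genes of the distal gut; Hoxd13, a homeobox gene of the hindgut, measured 8.25 and 9.10 there and 4.82 to 5.30 in the other 4 tumours. Epithelial replicate 3 was low for genes of growth, with a mean over cell division genes of 6.46 against 7.08 and 7.18. All 3 epithelial arrays were male in pattern, with Xist, which coats the X chromosome silenced in females, at 3.92 to 4.46, as in the male tumours (3.91 to 4.06) and not as in the female tumours (9.77 to 10.45). The labels do not say that the arrays of a group came from separate animals, so p-values measure the spread between these arrays, which may be technical.

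Of 15 epithelial markers 4 rose and 4 fell, shares near those of all genes (29.2% and 33.0%). The mean over the list was 10.96 to 11.02 in the epithelial arrays and 11.02 to 11.13 in 4 tumours, and 10.58 and 10.54 in tumours 9 and 15. Epcam, an adhesion protein of epithelia, measured 11.69, 11.65 and 11.96 in the epithelial arrays and 11.42 to 11.82 (median 11.75) in the tumours, and E-cadherin (Cdh1) measured 11.48, 11.33 and 11.49 against 11.44 to 11.60 (median 11.55). The groups overlapped for both genes, with differences of -0.09 ± 0.15 and 0.10 ± 0.12 (limma, adjusted p = 0.63 and 0.507). Stat3 itself measured 9.83, 9.74 and 9.91 in the epithelial arrays and 10.03 to 10.35 (median 10.10) in the tumours; the arrays did not overlap, but the difference of 0.30 ± 0.13 missed the threshold (adjusted p = 0.0589). Apc measured 8.85, 8.67 and 8.68 against 8.73 to 9.05 (median 8.94), a difference of 0.18 ± 0.12 (adjusted p = 0.214); the mutation of APCmin is a point change that an expression probe set cannot show. Beta-catenin (Ctnnb1) rose by 0.42 ± 0.15 (adjusted p = 0.0387), a call that was lost without any 1 array other than tumour 8 (adjusted p = 0.0561 to 0.135).

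The tumours differed from epithelial cells in most of the genes measured. Of 17047 genes tested, 10605 (62.2%) passed an adjusted p of 0.05, 4974 (29.2%) higher and 5631 (33.0%) lower in tumours. With a difference of at least 2-fold as well, 2410 (14.1%) were higher and 984 (5.77%) lower. In 4297 genes (25.2%) all tumours lay above all epithelial arrays, and in 4435 (26.0%) all lay below. The median difference over all genes was -0.07. The direction of the calls followed the level: among the 4262 dimmest genes, with a mean level up to 5.69, 272 were higher (6.38%) and 2517 lower (59.1%), with a median difference of -0.43 and 60 of the falls reaching 2-fold, whereas among the 4261 genes with mean levels from 6.91 to 8.15, 1950 were higher and 756 lower. The 25th percentile of the arrays lay at 4.51 to 4.56 in epithelial cells and 4.30 to 4.41 in tumours, so small falls of dim genes moved with the spread of the arrays' values; whether they are more than that was not tested. Counts of gene lists below are read against these shares.

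**Figure D1:**
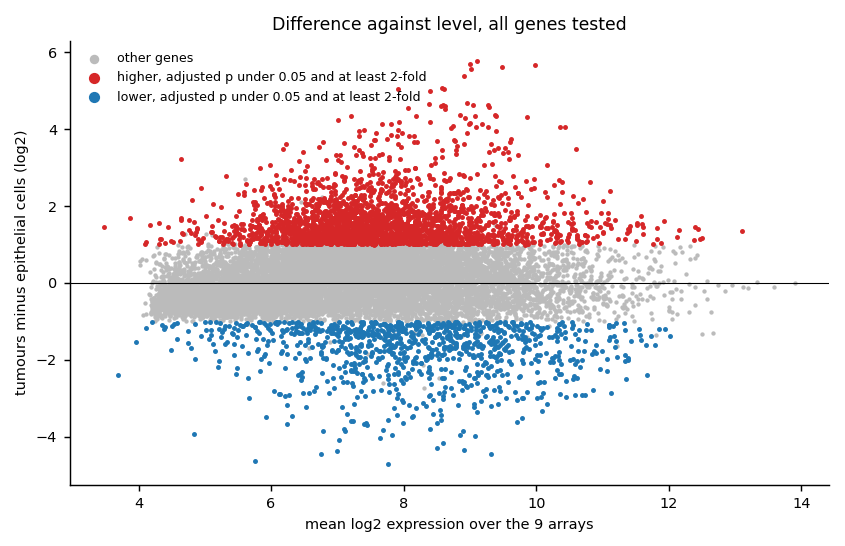
Difference between tumours and epithelial cells (log2, y axis) against the mean log2 expression over the 9 arrays (x axis) for the 17047 genes tested; red and blue points are the 2410 higher and 984 lower genes with an adjusted p under 0.05 and at least a 2-fold difference. The widest rises and falls lie at middle levels, and the cloud of dim genes lies slightly below 0.

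The number of calls moved most with epithelial replicates 3 and 2 and tumour 8. Without tumour 8, 12239 genes passed, and 10548 of the 10605 passed in the same direction. Without tumours 9 and 15 together, 9230 passed, 8893 of them shared. Without epithelial replicate 3, 7780 passed, 7718 of them shared, and without epithelial replicate 2 it was 8396. Over all genes 4387, 4137 and 3990 rose without epithelial replicate 1, 2 or 3 in turn, and 4741, 4259 and 3790 fell. Counts of lists without 1 of these arrays are read against these. None of the 10605 changed direction without tumour 8, without tumours 9 and 15 or without epithelial replicate 3. Expression varied more among tumours than among epithelial arrays, with a median SD over genes of 0.238 against 0.163.

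The 15 largest rises joined genes of defence, tissue repair, matrix turnover and WNT signalling. Lipocalin-2 (Lcn2), which binds bacterial iron carriers, measured 5.45, 5.29 and 5.03 in epithelial cells and 10.02 to 11.70 (median 11.07) in tumours, a difference of 5.78 ± 0.29 (adjusted p = 2.65e-06). Annexin A1 (Anxa1), a protein of resolving inflammation, rose by 5.70 ± 0.27, and the secreted chaperone clusterin (Clu) by 5.66 ± 0.20. They were followed by Wfdc18, a small WAP-domain protein (5.62), the amino acid transporter Slc38a4 (5.56), the protease inhibitor Serpina3n (5.39), the transcription factor Prox1 (5.07), the growth factor binding protein Igfbp5 (5.05), the lipid desaturase Scd1 (5.04) and the collagenase Mmp13 (5.0). Smooth muscle actin (Acta2, 4.69), the gut metalloprotease Adamdec1 (4.65), the matrix protein thrombospondin 1 (Thbs1, 4.64), the secreted phospholipase Pla2g2a (4.63) and stromelysin-2 (Mmp10, 4.63) completed the 15. In 12 of them the epithelial mean lay below the median of all probe sets. No detection call was used, so whether these genes were above background there is not known, and the size of these rises is uncertain.

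**Figure D2:**
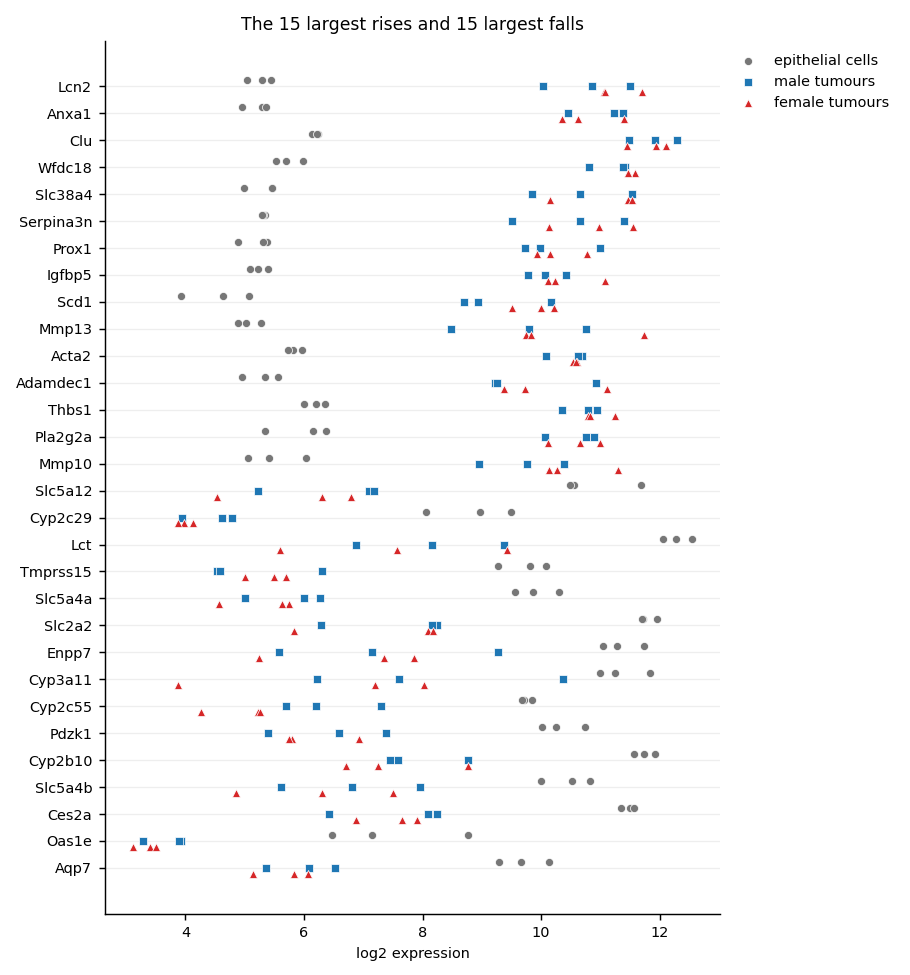
Log2 expression (x axis) of the 15 genes with the largest rise and the 15 with the largest fall among genes that passed and whose groups did not overlap, 1 point per array. Grey circles are the 3 epithelial arrays, blue squares the 3 male and red triangles the 3 female tumours; Cyp3a11 spans 3.87 to 10.36 among the tumours, the widest of the genes that fell.

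The 15 largest falls were mostly of enzymes and transporters. Slc5a12, a transporter of lactate and other short acids, measured 10.56, 10.49 and 11.68 in epithelial cells and 4.53 to 7.19 (median 6.56) in tumours, a difference of -4.72 ± 0.58 (adjusted p = 0.000268). The other falls were of the drug-metabolising enzymes Cyp2c29 (-4.62), Cyp3a11 (-4.15), Cyp2c55 (-4.09), Cyp2b10 (-3.99) and Ces2a (-3.94), of lactase (Lct, -4.46), of enteropeptidase (Tmprss15, -4.45), which activates trypsin, of alkaline sphingomyelinase (Enpp7, -4.28), of the sugar transporters Slc5a4a (-4.38), Slc2a2 (-4.33) and Slc5a4b (-3.95), of the scaffold protein Pdzk1 (-4.02), of the glycerol channel Aqp7 (-3.86) and of Oas1e, of a family of antiviral enzymes (-3.94). Several of these genes (the Cyp2c, Cyp3a, Ces2, Slc5a4 and Oas1 families) have close copies in the genome, and how far their probe sets share signal is not known here. In 6 of the 15 falls the tumour mean lay below the median of all probe sets, so the size of these falls is uncertain too. Oas1e lay above the array's 25th percentile in no tumour, so it was tested only because its 3 epithelial arrays (6.47 to 8.76) lay above it. Cyp2c29 lay above that percentile in 2 of the 6 tumours.

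WNT target and feedback genes were higher in tumours: 22 of 34 rose and 4 fell, with a median difference of 1.85 where the median over all genes was -0.07. The mean over the list was 6.46 to 6.61 in the epithelial arrays and 8.02 to 8.60 in the tumours. Notum, a secreted enzyme that inactivates WNT ligands, measured 5.72, 6.21 and 6.15 in epithelial cells and 9.74 to 10.40 (median 10.03) in tumours, a difference of 4.04 ± 0.19 (adjusted p = 1.67e-06). The negative regulator Nkd1 rose by 4.06 ± 0.26 and the WNT inhibitor Wif1 by 3.89 ± 0.43. Axin2, a scaffold of the destruction complex and a standard target of the pathway, measured 7.17, 7.20 and 7.41 against 8.64 to 10 (median 9.11), a difference of 1.98 ± 0.31 (adjusted p = 0.000933). Tumours 9 and 15 were the highest for Axin2, Nkd1, Wif1, Prox1 and Sox4, and without these 2 tumours the median of the list was 1.58.

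Other members with roles at the cell surface and in the nucleus moved the same way. The ubiquitin ligases that remove WNT receptors, Znrf3 (2.60 ± 0.23) and Rnf43 (1.78 ± 0.24), rose, as did the hyaluronan receptor Cd44 (3.57 ± 0.25), the guidance receptor Ephb3 (2.82 ± 0.24), the oncogenic transcription factor Myc (2.73 ± 0.32), cyclin D1 (Ccnd1, 2.05 ± 0.33) and the pathway's own DNA-binding factor Lef1 (1.90 ± 0.34). Not every target was higher: Sp5, a transcription factor often used as a target gene, differed by 0.32 ± 0.20 (adjusted p = 0.176), and the WNT antagonist Sfrp5 (-0.81 ± 0.15), the co-receptor Tdgf1 (-0.58 ± 0.19), the ligand Wnt11 (-0.37 ± 0.14) and the regulator Nkd2 (-0.32 ± 0.12) fell. Only Sfrp5 of these kept its call without each array in turn: Tdgf1 lost it without epithelial replicate 1 or 3, Wnt11 without any 1 array but tumours 8 and 14, and Nkd2 without any but tumour 8, so the 4 falls became 1 or 2 without epithelial replicate 1, 2 or 3 or tumour 7, 13 or 15. Of the 34 genes of the list 3 were among the dimmest described above, where 59.1% of all genes fell, and all 3 fell. Of the other 31 genes 1 fell. Prox1 also marks lymphatic endothelium, and Cd44, Myc, Ccnd1 and Sox4 are made by many stromal and immune cells. Markers of those cells rose too (below), and the part of those cells in the rises of these WNT genes was not tested. In bulk samples such as these, fewer cells of a type and less RNA per cell cannot be told apart.

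**Figure D3:**
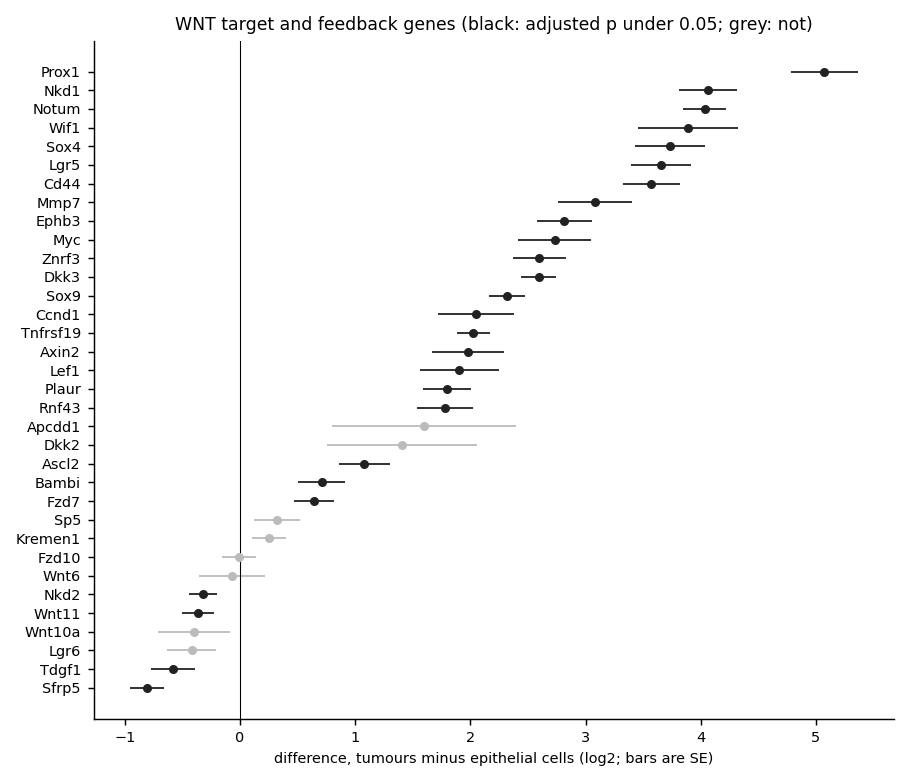
Difference between tumours and epithelial cells (log2, x axis) for the 34 WNT target and feedback genes tested, with SE bars; black points passed an adjusted p of 0.05 and grey points did not. The list runs from Prox1 at 5.07 to Sfrp5 at -0.81, with 22 genes higher and 4 lower.

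The letters around the gene starts were searched on both strands for short motifs of factors that act in these programmes, in RefSeq promoter windows (GRCm38.p6) from 250 bases before to 50 after the start. Windows were at hand for 13417 genes tested. The TCF/LEF motif CTTTGAT was in 3.36% of them and in 4 of 23 WNT genes (17.4%); the E2F motif TTTNGCGC was in 2.35% and in 7 of 30 cell division genes (23.3%); the HNF4 motif CAAAGTCCA was in 0.581% and in 3 of 32 brush-border genes (9.38%); the CDX motif TTTATNG was in 9.42% and in 9 of 32 brush-border genes (28.1%). The CDX motif was as frequent among WNT genes as TCF/LEF, in 4 of 23 (17.4%), and was in 2 of 30 cell division genes (6.67%). The TCF/LEF motif was in 1 of 30 cell division genes (3.33%) and 1 of 32 brush-border genes (3.12%). Whether these shares differ was not tested. Among the 2 largest changes of each list (Prox1, Nkd1, Bub1, Rrm1, Lct and Tmprss15) Tmprss15 was the only gene whose list's motif was in the window. The 250 bases before the start are shown for Tmprss15 and, chosen after their values were seen, for the member of each other motif with the largest change whose match lies before the start: Tnfrsf19, a receptor of crypt-base cells, at chr14:61037988-61038237 (minus strand), Cdk1, the kinase that starts mitosis, at chr10:69352913-69353162 (minus strand), and Treh, the brush-border trehalase, at chr9:44672983-44673232 (plus strand). Tmprss15 lies at chr16:79091098-79091347 (minus strand). Capitals mark the match on either strand, 202 bases before the start in Tnfrsf19, 131 in Cdk1, 71 in Treh and 146 in Tmprss15; a match is a run of letters and not a measured binding site.
Tnfrsf19: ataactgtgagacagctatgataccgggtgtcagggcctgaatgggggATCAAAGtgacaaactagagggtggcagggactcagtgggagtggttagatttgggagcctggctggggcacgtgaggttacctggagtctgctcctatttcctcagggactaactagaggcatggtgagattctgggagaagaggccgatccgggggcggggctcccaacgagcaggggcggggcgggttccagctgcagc
Cdk1: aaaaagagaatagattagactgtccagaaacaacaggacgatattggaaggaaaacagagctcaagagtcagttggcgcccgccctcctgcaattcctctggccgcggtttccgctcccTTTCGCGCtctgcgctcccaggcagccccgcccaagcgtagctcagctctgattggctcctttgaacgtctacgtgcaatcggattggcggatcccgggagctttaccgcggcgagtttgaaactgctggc
Treh: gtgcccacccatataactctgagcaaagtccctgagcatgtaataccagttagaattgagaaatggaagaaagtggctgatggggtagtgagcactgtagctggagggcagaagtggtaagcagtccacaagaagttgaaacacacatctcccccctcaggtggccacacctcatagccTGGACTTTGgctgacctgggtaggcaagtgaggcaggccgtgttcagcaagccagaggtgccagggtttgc
Tmprss15: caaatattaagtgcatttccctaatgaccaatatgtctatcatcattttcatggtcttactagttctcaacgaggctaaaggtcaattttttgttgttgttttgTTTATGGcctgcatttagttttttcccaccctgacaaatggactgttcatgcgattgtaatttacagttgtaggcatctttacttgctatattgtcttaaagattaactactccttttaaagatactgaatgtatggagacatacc

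Crypt-base stem cell genes rose in 16 of 21 and none fell, with a median of 1.42. Lgr5, the receptor for R-spondin that marks crypt-base stem cells, measured 5.68, 6.15 and 5.33 in epithelial cells and 8.91 to 9.83 (median 9.44) in tumours, a difference of 3.66 ± 0.26 (adjusted p = 1.79e-05). Igfbp4 (4.38 ± 0.19), the membrane protein Prom1 (2.78 ± 0.32), the matrix protein Smoc2 (1.96 ± 0.17), Tnfrsf19 (2.03 ± 0.14, whose window is printed above) and the stem cell factor Ascl2 (1.08 ± 0.22) rose as well. Olfm4, a secreted protein of crypt-base cells, did not follow them. It measured 10.26, 10.47 and 8.66 in epithelial cells and 5.86, 6.62, 8.19, 9.12, 9.51 and 9.98 in tumours 9, 15, 8, 14, 13 and 7, so the groups overlapped (-1.58 ± 0.90, adjusted p = 0.15); without tumour 7 its difference was -2.07 (adjusted p = 0.0498).

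Genes of the fetal-like or regenerating gut rose in 18 of 22 and none fell, with a median of 1.99. Beside Anxa1 and Clu these were the gap junction protein Gja1 (3.82 ± 0.36), the annexins Anxa8 (3.58 ± 0.42) and Anxa3 (2.41 ± 0.23), the adhesion protein Vsig1 (3.40 ± 0.38), the EGF-family ligand epiregulin (Ereg, 2.63 ± 0.25), keratin 7 (Krt7, 2.27 ± 0.18) and the YAP target genes Ccn2 (1.78 ± 0.32) and Ccn1 (1.71 ± 0.26). Ankrd1, another target of YAP, differed by 0.13 ± 0.23 (adjusted p = 0.631). The mean over the list was 6.90 to 7.02 in the epithelial arrays and 8.91 to 9.37 in the tumours, without overlap. Markers of stromal, vascular and myeloid cells rose too (below). The part of those cells in the rises of this list and of the crypt-base stem cell list was not tested.

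**Figure D4:**
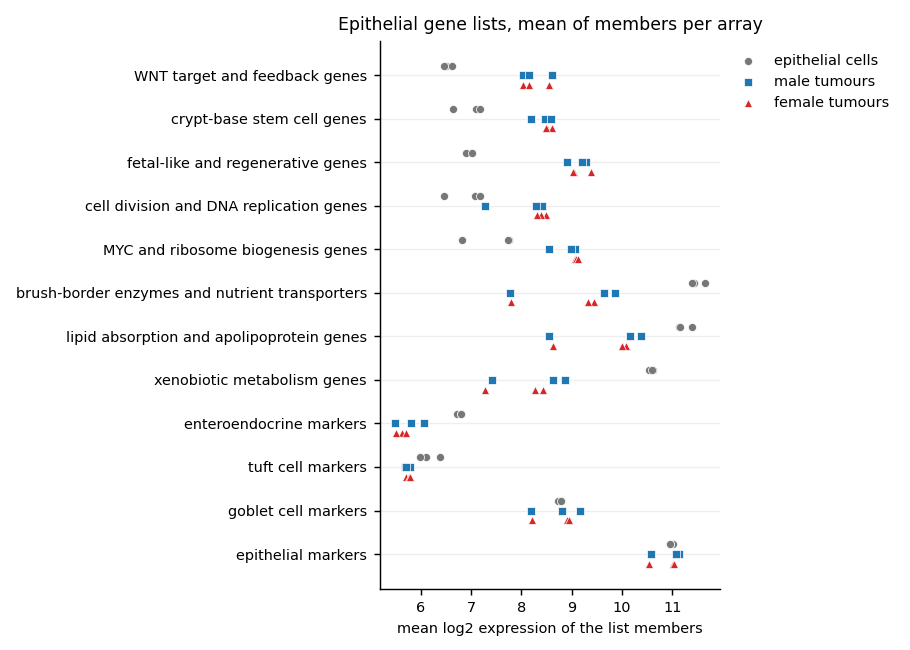
Mean log2 expression per array (x axis) over the measured members of 12 lists of epithelial genes; grey circles are the 3 epithelial arrays, blue squares the male and red triangles the female tumours. The WNT list separates at 6.61 against 8.02, and the 2 tumours lowest for brush-border genes (7.76 and 7.78) are replicates 9 and 15.

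Cell division genes were higher in tumours, but less so in tumour 8. Of 39 genes 36 rose and none fell, with a median of 1.32, and arrays did not overlap in 22. The mean over the list was 7.08, 7.18 and 6.46 in the epithelial arrays and 8.28 to 8.49 in 5 tumours, while tumour 8 measured 7.28. Ki-67 (Mki67), a nuclear protein of dividing cells, measured 7.94, 8.16 and 6.61 in epithelial cells and 9.09 to 9.55 in 5 tumours but 7.91 in tumour 8, a difference of 1.53 ± 0.41 (adjusted p = 0.011). The spindle checkpoint kinase Bub1 (2.04 ± 0.55), the ribonucleotide reductase subunit Rrm1 (2.01 ± 0.45), topoisomerase Top2a (1.88 ± 0.52), the replicative helicase subunits Mcm3 (1.99 ± 0.33) and Mcm7 (1.82 ± 0.29), and Cdk1 (1.58 ± 0.22) rose. The replication licensing factor Cdc6 (0.35 ± 0.28, adjusted p = 0.295) and cyclin E2 (Ccne2, -0.32 ± 0.37, adjusted p = 0.473) did not pass, although without tumour 8 Cdc6 passed as higher (0.56, adjusted p = 0.016). Without epithelial replicate 3 the median was 1.10, and Bub1 (1.52, adjusted p = 0.0591), Top2a (1.30, adjusted p = 0.0637) and Mki67 (1.05, adjusted p = 0.0561) lost their calls.

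Ribosome biogenesis genes, many of them targets of MYC, rose in 24 of 25 with none lower and a median of 1.74, which was 1.39 without epithelial replicate 3. The nucleolar protein nucleophosmin (Npm1) measured 8.80, 8.97 and 7.09 in epithelial cells and 10.36 to 10.63 (median 10.51) in tumours, a difference of 2.23 ± 0.36 (adjusted p = 0.000949). The RNA helicase Ddx21 (2.24 ± 0.27), the small nucleolar RNA proteins Nop58 (2.0 ± 0.36) and Nop56 (1.90 ± 0.25), nucleolin (Ncl, 1.86 ± 0.32) and fibrillarin (Fbl, 1.56 ± 0.20) rose. The exception was Odc1, the ornithine decarboxylase of polyamine synthesis and a textbook MYC target, at -0.17 ± 0.18 (adjusted p = 0.409).

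Brush-border enzymes and nutrient transporters fell in 33 of 34 genes, each by at least 2-fold, with a median of -2.47. Lactase (Lct) measured 12.05, 12.28 and 12.55 in epithelial cells and 5.60 to 9.43 (median 7.86) in tumours, a difference of -4.46 ± 0.75 (adjusted p = 0.00122). Enteropeptidase (Tmprss15) fell by 4.45 ± 0.38 and trehalase (Treh) by 3.79 ± 0.55; their windows are printed above. The fructose transporter Slc2a5 (-3.44 ± 0.62), the neutral amino acid transporter Slc6a19 (-3.61 ± 0.92), the peptide transporter Slc15a1 (-3.34 ± 0.69) and the sodium-glucose transporter Slc5a1 (-2.87 ± 0.53) fell too, as did the microvillus protein villin (Vil1, -1.34 ± 0.29). The sodium-proton exchanger Slc9a3 was the exception, at 0.26 ± 0.28 (adjusted p = 0.429). It measured 9.99 in tumour 8 and 11.17 to 11.41 in the other tumours, and without tumour 8 it passed as higher (0.48, adjusted p = 0.0165).

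The size of these falls differed between tumours. Sucrase-isomaltase (Sis), which splits dietary sugars, measured 12.86, 12.61 and 12.67 in epithelial cells, 10.89 to 11.51 in 4 tumours and 7.57 and 7.29 in tumours 9 and 15. Its difference of -2.79 ± 1.0 (adjusted p = 0.035) lost the call without any 1 epithelial array (adjusted p = 0.084 to 0.0941). Over the list the mean was 11.39 to 11.65 in epithelial cells, 9.32 to 9.87 in those 4 tumours and 7.76 and 7.78 in tumours 9 and 15. Without those 2 tumours 33 of the 34 still fell, with a median of -1.74. The 2 tumours were also the lowest for proximal small intestine genes (mean 7.35 and 7.43 against 8.43 to 8.75) and the highest for colon genes (6.95 and 6.87 against 5.69 to 5.93); the part of the gut segment in these falls was not tested.

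Most lipid absorption and drug metabolism genes fell too. Of 26 lipid genes 20 fell and 1 rose, with a median of -1.99. The apolipoprotein Apoc3 (-3.15 ± 0.82), the cholesterol importer Npc1l1 (-2.96 ± 0.70), the fatty acid binding proteins Fabp2 (-2.49 ± 0.91) and Fabp1 (-1.99 ± 0.64) and the chylomicron assembly factor Mttp (-1.99 ± 0.70) fell. Fabp2, Fabp1 and Mttp lost their calls without any 1 epithelial array (adjusted p = 0.0615 to 0.105), and 12 of the 20 calls of the list were left without replicate 3. Apoe, an apolipoprotein that macrophages also secrete, rose: it measured 8.59, 8.72 and 8.39 against 10.50 to 11.78 (median 10.94), a difference of 2.54 ± 0.28 (adjusted p = 0.000167). Xenobiotic metabolism genes fell in 30 of 32, with a median of -2.45; among them were the efflux pumps Abcg2 (-2.07 ± 0.34) and Abcb1a (-1.97 ± 0.45), the dioxin-inducible Cyp1a1 (-3.49 ± 0.32) and the nuclear receptor Nr1i2 (-1.82 ± 0.42), which senses foreign compounds. Without tumours 9 and 15 the medians were -1.30 and -1.92.

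Energy metabolism genes gave smaller median differences. Fatty acid oxidation genes fell in 10 of 23 and none rose (median -0.61), with the peroxisomal enzyme Ehhadh at -2.36 ± 0.38 and the mitochondrial regulator Ppargc1a at -1.72 ± 0.18. Respiratory chain genes fell in 13 of 26 and none rose (median -0.41), of which Sdhb of complex II alone reached 2-fold (-1.04 ± 0.16). In this list 7 genes fell without epithelial replicate 1 and 8 without replicate 2. These counts lay near the shares of all genes that fell in those fits (4741 and 4259 of 17047). Among glycolysis and hypoxia genes 10 of 21 rose and 1 fell. The glucose transporter Slc2a1 measured 8.13, 7.87 and 8.05 in epithelial cells and 10.39 to 10.61 (median 10.53) in tumours, a difference of 2.51 ± 0.12 (adjusted p = 2.42e-06), and hexokinase 2 (Hk2) rose by 1.75 ± 0.14, whereas lactate dehydrogenase (Ldha, -0.10 ± 0.18, adjusted p = 0.633) did not pass and Vegfa, the vessel growth factor, fell by 0.77 ± 0.22 (adjusted p = 0.0718 without epithelial replicate 3). Cholesterol synthesis genes rose in 12 of 18 and none fell (median 0.94), with squalene synthase (Fdft1, 1.47 ± 0.26), lanosterol synthase (Lss, 1.45 ± 0.27) and the regulator Srebf2 (1.29 ± 0.13). In tumour 8 the mean of the cholesterol list was 8.81 against 9.35 to 9.64 in the other tumours. Of 23 unfolded protein response genes 6 rose, such as the disulphide isomerase Pdia6 (1.45 ± 0.36), and 2 fell, Trib3 (-1.33 ± 0.23) and Ddit3 (-0.93 ± 0.16). Both shares lay below those of all genes (29.2% and 33.0%). That list rested on single arrays: 14 rose and 5 fell without tumour 8, and 3 rose without epithelial replicate 3, where Pdia6 was at 0.96.

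The lists of secretory cell types gave different counts. Hormone-producing enteroendocrine cells gave lower signals: 19 of 24 markers fell and 1 rose (median -1.03). Cholecystokinin (Cck), a hormone of the upper gut, measured 9.04, 8.95 and 9.31 in epithelial cells and 5.70 to 7.21 (median 6.80) in tumours, a difference of -2.53 ± 0.33 (adjusted p = 0.000364); neurotensin (Nts, -2.88 ± 0.32), secretin (Sct, -2.10 ± 0.27) and somatostatin (Sst, -2.06 ± 0.32) fell, and the tachykinin precursor Tac1 rose by 0.94 ± 0.15. Chemosensory tuft cell markers fell in 12 of 17 and 1 rose (median -0.53). Of these 17 genes 6 were among the dimmest described above, where 59.1% of all genes fell, and 7 of the other 11 fell. The channel Trpm5 (-1.01 ± 0.20) and the factor Pou2f3 (-0.79 ± 0.17) fell, Dclk1 was at -0.01 ± 0.34 (adjusted p = 0.991), and Avil, an actin-binding protein, rose by 2.68 ± 0.20.

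Of 15 markers of mucus-producing goblet cells 5 rose and 5 fell, shares close to those of all genes (29.2% and 33.0%). The secreted products Clca1 (-2.92 ± 0.51), Zg16 (-1.37 ± 0.42) and Tff3 (-1.19 ± 0.42) fell, the factors Creb3l1 (1.53 ± 0.22) and Foxa3 (1.39 ± 0.18) rose, and the main mucin Muc2 was at -0.61 ± 0.33 (adjusted p = 0.126). Tff3 lost its call without any 1 epithelial array or tumour 15 and Zg16 without epithelial replicate 2 or 3; 1 marker fell without epithelial replicate 3, 3 fell without replicate 1, 2 or 15, and 3 rose without replicate 2. Of 11 Paneth cell markers tested 4 rose and 3 fell, also near the shares of all genes. The matrix protease Mmp7 (3.08 ± 0.32), which is also a WNT target, and Habp2 (3.60 ± 0.43) rose with Pla2g2a. The antimicrobial ribonuclease Ang4 fell by 1.75 ± 0.36. Lysozyme Lyz1 was at 0.66 ± 0.28 (limma, adjusted p = 0.0627), and it passed at 0.87 without epithelial replicate 2 (adjusted p = 0.0445). Notch genes, which set the balance of absorptive and secretory fates, rose in 7 of 17 and fell in 4, where 29.2% of all genes rose and 33.0% fell. Markers of stromal and vascular cells rose too (below), and the part of those cells in these counts was not tested. The receptors Notch2 (1.80 ± 0.18) and Notch1 (1.46 ± 0.31), the ligand Jag1 (1.17 ± 0.18) and the target Hes1 (1.16 ± 0.31) rose, while the ligand Dll1 (-1.27 ± 0.28) and the secretory fate factor Atoh1 (-0.76 ± 0.28) fell. Without epithelial replicate 3 the calls of Hes1 (0.84, adjusted p = 0.0541) and Atoh1 (-0.61, adjusted p = 0.157) were lost; Atoh1 also lost its call without replicate 1, 8, 9, 13 or 15, and 2 of the 4 falls were left without replicate 1, 3, 9, 13 or 15.

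Growth factor genes showed changes of single members. In the EGF family 4 of 13 rose and 4 fell, shares close to those of all genes (29.2% and 33.0%). Ereg, neuregulin 1 (Nrg1, 1.40 ± 0.16) and betacellulin (Btc, 1.08 ± 0.17) rose with the receptor inhibitor Lrig1 (1.42 ± 0.37), and Hbegf (-1.17 ± 0.19) and the receptor Erbb3 (-0.94 ± 0.31) fell. The EGF receptor itself (Egfr) was at 0.28 ± 0.22 (adjusted p = 0.283), or 0.44 without tumour 9 (adjusted p = 0.029), and without any 1 epithelial array Erbb3 lost its call (adjusted p = 0.052 to 0.0947) and 2 of the 4 falls were left. In the TGF-beta and BMP list 14 of 24 rose and 2 fell (median 0.92), among them the ligands Bmp4 (2.67 ± 0.34), Inhba (2.57 ± 0.42) and Tgfb1 (1.53 ± 0.21), the stromal BMP antagonist gremlin 1 (Grem1, 2.42 ± 0.21) and the receptor Tgfbr2 (2.32 ± 0.17). Smad4, the shared signal carrier, fell by 0.38 ± 0.12, a call lost without epithelial replicate 1 or 3 (adjusted p = 0.0503 and 0.0528).

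Of 16 prostaglandin genes 5 rose and 6 fell, shares close to those of all genes (29.2% and 33.0%). Ptgs2 (COX-2), the inducible enzyme of synthesis, measured 5.13, 5.41 and 5.20 in epithelial cells and 8.29 to 10.89 (median 8.79) in tumours, a difference of 3.84 ± 0.35 (adjusted p = 5.75e-05). The synthase Ptges rose by 1.29 ± 0.24, and Hpgd, which inactivates prostaglandins, measured 10.58, 10.60 and 10.59 against 7.23 to 9.68 (median 8.69) and fell by 2.04 ± 0.43 (adjusted p = 0.00342). Of the receptors Ptger4 fell by 0.67 ± 0.23, a call lost without epithelial replicate 2 or 3, and Ptger2 was at -0.11 ± 0.16 (adjusted p = 0.555). The 6 falls were 3 without epithelial replicate 2 or without tumours 9 and 15, and 2 without epithelial replicate 3.

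Among junction genes 6 of 27 rose and 6 fell, 3 without epithelial replicate 3. Both shares lay below those of all genes (29.2% and 33.0%). Claudin-2 (Cldn2), which forms pores for cations and water, measured 7.61, 7.27 and 6.20 against 9.30 to 10.25 (median 9.87) and rose by 2.81 ± 0.34 (adjusted p = 0.000232), while claudin-15 (Cldn15), the sodium pore of the small intestine, measured 10.43, 10.45 and 10.97 against 6.71 to 9.03 (median 8.20) and fell by 2.59 ± 0.53 (adjusted p = 0.00312). Occludin (Ocln) fell by 0.84 ± 0.14. The mesenchymal factors Zeb2 (1.34 ± 0.20) and Zeb1 (1.03 ± 0.18) and N-cadherin (Cdh2, 1.22 ± 0.33), which fibroblasts and other stromal cells make, rose. Matrix metalloproteinases and their inhibitors rose in 16 of 20 and fell in 1 (median 1.92); beside Mmp13 and Mmp10 the gelatinase Mmp2 (3.25 ± 0.25), the membrane protease Mmp14 (3.23 ± 0.18) and the inhibitors Timp3 (3.90 ± 0.38) and Timp1 (2.57 ± 0.17) rose.

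RNA of stromal and vascular cells was much higher in tumours. Fibroblast and matrix markers rose in 23 of 26 and fell in 2, with a median of 2.51 and a mean over the list of 6.28 to 6.50 in epithelial cells and 8.40 to 9.09 in tumours. Collagen I (Col1a1) measured 8.0, 7.60 and 7.34 in epithelial cells and 11.55 to 11.92 (median 11.71) in tumours, a difference of 4.07 ± 0.16 (adjusted p = 9.83e-07); biglycan (Bgn, 4.53 ± 0.33), tenascin C (Tnc, 4.14 ± 0.20) and the receptor Pdgfra (3.83 ± 0.17) rose as well. Fap, a protease of activated fibroblasts, went the other way (-1.20 ± 0.13), as did the matrix protein Fbln1 (-1.65 ± 0.20). Endothelial markers rose in 17 of 19 with none lower (median 1.30), led by VE-cadherin (Cdh5), which measured 4.71, 4.95 and 4.80 against 7.84 to 8.30 (median 8.19), a difference of 3.32 ± 0.13 (adjusted p = 1.02e-06). Smooth muscle markers rose in 11 of 16 and 1 fell (median 1.52), with the pericyte gene Rgs5 at 3.96 ± 0.14 and smooth muscle myosin Myh11 at 2.54 ± 0.38. Of 12 markers of enteric nerves and glia none rose and 3 fell (33.0% of all genes fell), 5 without tumour 8.

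**Figure D5:**
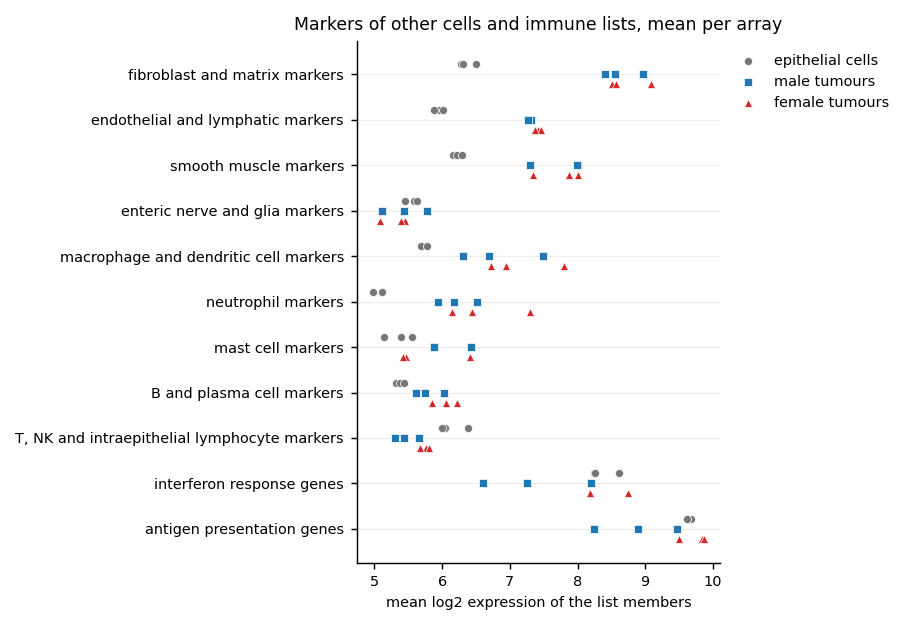
Mean log2 expression per array (x axis) over the measured members of 11 lists of markers of other cells and of immune genes; grey circles are the 3 epithelial arrays, blue squares the male and red triangles the female tumours. Fibroblast, endothelial and smooth muscle markers lie higher in all 6 tumours, and the interferon list spans 6.60 (tumour 8) to 8.74 (tumour 15).

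Of the immune markers that passed, most myeloid ones rose and the T, NK and intraepithelial lymphocyte ones fell. Macrophage and dendritic cell markers rose in 15 of 21 and fell in 1 (median 1.30): the growth factor receptor Csf1r measured 5.82, 5.57 and 5.73 against 7.29 to 9.22 (median 8.08), a difference of 2.51 ± 0.35 (adjusted p = 0.000493), and the complement gene C1qc rose by 2.39 ± 0.39. Neutrophil markers rose in 13 of 18 and fell in 3 (median 1.20). Ly6g, the surface protein used to sort neutrophils, measured 3.95, 4.54 and 4.08 against 6.86 to 9.58 (median 8.79), a difference of 4.24 ± 0.63 (adjusted p = 0.000663), and the chemokine receptor Cxcr2 rose by 1.74 ± 0.41. The granule genes of young neutrophils Mpo (-0.80 ± 0.19) and Camp (-0.66 ± 0.12) were among the 3 that fell, all of them among the dimmest genes. Of 20 T, NK and intraepithelial lymphocyte markers none rose and 12 fell, 6 without epithelial replicate 3 (median -0.48); 5 of the 20 were among the dimmest genes, and 9 of the other 15 fell. The killer-cell protease Gzma measured 8.70, 8.32 and 9.24 in epithelial cells and 5.74 to 7.63 (median 6.78) in tumours, a difference of -2.05 ± 0.45 (adjusted p = 0.00426), and Cd8a fell by 1.14 ± 0.24. Interleukin 15 (Il15), the cytokine that sustains these lymphocytes, fell by 2.69 ± 0.18. Of 12 B and plasma cell markers tested 6 rose and 3 fell (median 0.53). The J chain of secreted antibodies (Jchain, 4.31 ± 0.37) and IgM (Ighm, 2.67 ± 0.35) rose, and the B cell genes Cd22 (-0.67 ± 0.14) and Pax5 (-0.49 ± 0.10), which were among the dimmest genes, fell.

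Inflammatory genes differed in both directions within each list. Acute-phase and antimicrobial genes rose in 11 of 25 and fell in 7: after Lcn2, Wfdc18 and Serpina3n came serum amyloid Saa3 (4.56 ± 0.33), ceruloplasmin (Cp, 3.97 ± 0.44), Lrg1 (3.83 ± 0.23) and haptoglobin (Hp, 3.72 ± 0.23). The antibacterial lectin Reg3a fell by 2.82 ± 0.62, the immunoglobulin transporter Pigr by 0.93 ± 0.25 and the oxidase Duox2 by 1.47 ± 0.37; Reg3b, at 13.11, 13.24 and 13.06 in epithelial cells and 11.26 to 13.10 in tumours, did not pass (-0.76 ± 0.38, adjusted p = 0.106). Of 33 chemokines and cytokines 15 rose and 6 fell (median 0.59). Cxcl9, which draws T cells, measured 5.87, 5.31 and 5.62 against 6.08 to 10.81 (median 9.66), with tumour 8 the lowest, and rose by 3.54 ± 0.60 (adjusted p = 0.0013); interleukin 1 beta (Il1b) rose by 2.81 ± 0.48 and the neutrophil chemokine Cxcl2 by 2.54 ± 0.64. The thymus and gut chemokine Ccl25 fell by 2.36 ± 0.73, a call lost without any 1 epithelial array (adjusted p = 0.0553 to 0.0568). A dimmer probe set of Ccl25, not used in the test, did not show the fall (0.07). Without epithelial replicate 2 or 3 the list had 3 falls.

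Genes of the STAT3 pathway moved in both directions. Of 32 tested, 11 rose and 6 fell, with a median of -0.01 beside -0.07 for all genes. The share that rose was near that of all genes (29.2%), and the share that fell lay below that of all genes (33.0%). The receptors Osmr (2.52 ± 0.30), Lifr (1.90 ± 0.30) and their shared chain Il6st (1.87 ± 0.22) rose with the ligands Il11 (1.71 ± 0.38) and Il6 (1.25 ± 0.40). The IL-22 receptor Il22ra1 (-1.40 ± 0.47), the kinase Jak2 (-1.19 ± 0.19) and the IL-10 family receptor Il10rb (-0.88 ± 0.18) fell. The feedback inhibitor Socs3, itself a STAT3 target, was at -0.36 ± 0.20 (adjusted p = 0.13; -0.47 without tumour 15, adjusted p = 0.0388), the kinase Pim1 fell by 0.76 ± 0.23, and the acute-phase protein Lrg1 rose the most. Il6 and Il22ra1 lost their calls without any 1 epithelial array (adjusted p = 0.0527 to 0.11) and Pim1 without replicate 1 or 3, and 3 of the 6 falls were left without replicate 3.

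Interferon response genes fell in 11 of 19 and rose in 3 (median -0.80). The antiviral enzyme Oasl2 measured 10.44, 10.62 and 10.96 in epithelial cells and 6.93 to 9.57 (median 9.19) in tumours, a difference of -1.92 ± 0.41 (adjusted p = 0.00383), and the regulator Irf7 fell by 1.40 ± 0.21, whereas Cxcl10 rose by 2.49 ± 0.54. Tumours 8 and 7 were low for this list (mean 6.60 and 7.25 against 8.18 to 8.74 in the other 4, and 8.25 to 8.61 in epithelial cells). Without epithelial replicate 3 the list had 6 falls, and it had 1 rise without epithelial replicate 1, 2 or 3 or tumour 15. Of 16 antigen presentation genes none rose and 2 fell, Psmb10 (-0.74 ± 0.15) and Tap2 (-0.67 ± 0.19, adjusted p = 0.0543 without epithelial replicate 3); 6 fell without tumour 9. Circadian clock genes fell in 8 of 16 and rose in 2 (median -0.57): the output factor Dbp measured 8.96, 8.88 and 9.89 against 6.28 to 8.07 (median 6.79), a difference of -2.26 ± 0.27 (adjusted p = 0.000229), and Nr1d1 fell by 2.26 ± 0.30. The time of day of sampling is not in the labels, and its part was not tested. Of 22 genes induced by handling and heat 4 rose and 8 fell, against 29.2% and 33.0% of all genes; Ier3 rose by 2.27 ± 0.29, and Fosb (-1.76 ± 0.22) and Fos (-1.67 ± 0.28) fell; the part of cell isolation in these was not tested.

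Male and female tumours each differed widely from the shared epithelial arrays, which are all male in pattern. In males 8091 genes passed (47.5%), 4062 higher (23.8%) and 4029 lower (23.6%); in females 10037 passed (58.9%), 4760 higher (27.9%) and 5277 lower (31.0%). Without epithelial replicate 3 the male count was 5111 and the lower female calls 3479. Without tumour 8, a male tumour, 10947 genes passed in males and 11539 in females. Only without tumour 15, a female tumour, was the male count the larger (7865 against 7522). The median of the WNT list was 1.80 in males and 1.83 in females, and that of the brush-border list -2.57 and -2.64. Set directly against each other, male and female tumours differed in 4 genes (0.0235%), all of the sex chromosomes: Xist was lower in males (-6.05 ± 0.20, adjusted p = 1.65e-06), and the Y-linked Eif2s3y (5.19 ± 0.24, adjusted p = 1.47e-05), Uty (3.93 ± 0.32, adjusted p = 0.00204) and Kdm5d (2.85 ± 0.30, adjusted p = 0.014) were higher. Leaving out array 2, 3, 7, 13, 14 or 15 took Kdm5d above the threshold, to an adjusted p of 0.0514 to 0.123. At an unadjusted p under 0.05 there were 374 genes. The next in order, Slfn2 (-0.85 ± 0.17) and the lymphatic marker Pdpn (-1.05 ± 0.22), had an adjusted p of 0.995.

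Apart from the sex-linked genes, the most variable genes among the 6 tumours did not divide them by sex. The 10 genes with the largest SD over the tumours were Xist, Car1, Eif2s3y, Fabp6, Smpx, Mt4, Uty, Cadps, Cyp3a11 and Sval1. Carbonic anhydrase Car1, an enzyme of the colon surface, measured 10.90 and 10.24 in tumours 9 and 15 and 4.48 to 5.05 in the other 4, against 7.37, 5.65 and 5.69 in epithelial cells; Smpx, Mt4, Cadps and Sval1 were likewise highest in tumours 9 and 15. The ileal bile acid binding protein Fabp6 measured 11.10 in tumour 8 and 4.78 to 8.53 in the other tumours. So each sex held 1 tumour with distal markers, and the tumour with the most Fabp6 is the tumour that stood apart.

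The same comparison in the Stat3-deleted arrays, which are other samples, gave similar directions for most genes. Of the 10605 genes above, 10395 had the same sign there and 8888 also passed there, where 11514 genes (66.5%) passed in all. A direct test of the difference between the comparisons passed for 2 of 17316 genes (0.0116%), with 1624 at an unadjusted p under 0.05. Lrg1 measured 8.72 to 9.79 in the 6 control tumours, 5.80 to 6.64 in the 6 Stat3-deleted tumours and 5.33 to 5.69 in all 6 epithelial arrays, so its rise was larger with Stat3 intact by 3.14 ± 0.31 (adjusted p = 0.000288). H2-Eb2, a class II antigen presentation gene, measured 5.14 to 6.04 in the control tumours and 7.20 to 8.58 in the Stat3-deleted tumours against 5.42 to 5.92 in the epithelial arrays, a difference of -2.01 ± 0.30 (adjusted p = 0.0402). Lrg1 passed without each of the 18 arrays in turn, whereas H2-Eb2 missed the threshold when replicate 1 to 8, 10 or 13 to 16 was left out, 13 arrays of the 18, with an adjusted p up to 0.232. After these came the neuropeptide receptor Npy2r (1.58 ± 0.25, adjusted p = 0.0514), the G protein subunit Gnal (2.06 ± 0.36, adjusted p = 0.123), neuropeptide Y (Npy, -2.37 ± 0.44, adjusted p = 0.123) and Cyp2j9 (-1.71 ± 0.33, adjusted p = 0.153), which did not pass, though each passed without 1 or more single arrays (adjusted p = 0.0241 to 0.0456). With array weights 1038 genes passed this test, and without replicate 9 or 18 it was 5 and 10 genes. The median of the brush-border list was -1.60 in the Stat3-deleted comparison with 26 of its genes lower (36.2% of all genes were lower there), and that of the xenobiotic list -1.29 with 16 lower, beside -2.47 and -2.45 here (-1.74 and -1.92 without tumours 9 and 15); no member of either list passed the test of the difference.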

How the data were processed

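Total RNA of 18 mouse samples was labelled with the Affymetrix WT kit and hybridised to 1-colour arrays, per the labels. The authors deposited log2 values, per the file, made with RMA, per the submitters' processing notes, with no further settings named there. No further scaling was applied. Of 35556 probe sets, 21789 had 1 gene symbol, 1621 several and 12146 none in the platform annotation; 21698 were matched to current symbols, and for 999 genes with several probe sets the brightest was used, giving 19938 genes. Genes above the array's 25th percentile in at least 3 of the 9 arrays (17047) were tested with limma 3.58.1 in R 4.3.3 (intensity trend, two-sided, Benjamini-Hochberg over all genes tested, threshold 0.05); the mean of the male and female tumour groups was set against epithelial cells. The difference from Stat3-deleted samples was an interaction over all 18 arrays (17316 genes). Genes named were Stat3 and Apc, the 15 largest rises and falls among called genes whose groups did not overlap, the 10 most variable among tumours, the leading genes of the other 2 tests, and members of 44 lists (954 genes, 865 tested). The members and lists were chosen with earlier results of these data known. Alternatives changed scaling, filter, probe set rule, sex groups, variance model, array weights and arrays. The procedure was tested on simulated data. Labels give no batch or scan date, so none was tested.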

Additional observations from a re-analysis of the deposited data

Results flagged for a closer look

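In 31 of 283 values followed over the 6 control tumours (239 genes and 44 list means), 1 tumour lay apart by Dixon's 95% limit. Chance alone flags about 1 in 20 independent groups, 14.2 of 283. These values are not independent, as the genes were chosen with earlier results known and list means hold some of them. The 31 can therefore not be set against the 14.2. In 26 of the 31 it was male replicate 8 and in 5 it was female replicate 15.

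Tumour 8 was low for list means of growth: crypt-base stem cell genes at 8.19 (the others 8.47 to 8.61), cell division genes at 7.28 (8.28 to 8.49), ribosome biogenesis genes at 8.54 (8.98 to 9.12), cholesterol synthesis genes at 8.81 (9.35 to 9.64) and unfolded protein response genes at 9.33 (9.82 to 9.93). It was high for circadian clock genes at 7.87 (6.97 to 7.20). Among single genes it was low for Bub1 at 5.88, Ccnd1 at 9.10, Ccne2 at 4.51, Cdc6 at 6.10, Cdk1 at 7.65, Mcm3 at 7.33, Mcm7 at 8.24, Mki67 at 7.91, Rrm1 at 8.14 and Top2a at 7.79, all of the cell cycle. It was also low for the nucleolar genes Nop56 at 8.96 and Nop58 at 8.26, for Acta2 at 10.08, Fdft1 at 9.76, Foxa3 at 8.19, Hes1 at 7.98, Pdia6 at 9.86, Slc9a3 at 9.99 and Wfdc18 at 10.80, and high for Mpo at 5.61.

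Tumour 15 was high for the mean of STAT3 pathway genes at 8.49 (8.08 to 8.22 in the others), for Cxcl2 at 9.95, Il11 at 9.43 and Nrg1 at 8.02, and low for Npy at 7.07.

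Groups differed under the same contrast for 6 genes. Between male and female tumours these were Eif2s3y (5.19), Uty (3.93), Kdm5d (2.85) and Xist (-6.05). The tumour difference changed with deletion of Stat3 for Lrg1 (3.14) and H2-Eb2 (-2.01), each by the test of the difference itself.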

How the results depend on the processing

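The count of 10605 genes was 3394 with at least a 2-fold difference (2410 higher, 984 lower) and 6128 with male tumours only (2738 lower); its lower calls were 3170 where genes had to exceed the array median. Under that filter 2436 genes were lower in male and 2922 in female tumours. Leaving out 1 array gave 7780 to 12239 genes, 3990 to 5704 higher and 3790 to 6535 lower; for male tumours it gave 5111 to 10947 genes (2140 to 5805 lower) and for female tumours 3479 to 6119 lower. For the difference from Stat3-deleted samples, array weights gave 1038 genes (659 higher, 379 lower), quantile normalisation and centring of arrays each gave 2 higher genes, and leaving out 1 array gave 1 to 10 genes, 1 to 6 higher and 0 to 4 lower. The cause was not tested beyond the fewer arrays or genes in these fits. Of calls with at least a 2-fold difference 71.0% were higher as deposited, 61.2% (1987 against 1260) after quantile normalisation and 73.5% after centring. Of 239 genes followed, 193 kept their side of the threshold and their direction under each alternative that could give a value. The single genes named as higher or lower under Other observations were not among the 239. Whether their calls hold under the alternatives was not tested. With male tumours only the sex-linked genes turned, Xist to -0.20, Eif2s3y to 0.0595, Kdm5d to 0.12 and Uty to 0.26; without tumours 9 and 15, Car1 (-1.53), Hoxd13 (-0.58) and Smpx (-0.67) turned and passed as lower. List medians near 0 changed sign for the EGF, Notch, prostaglandin, junction, STAT3 pathway, antigen presentation, Paneth and red blood cell lists under 1 or more alternatives; the STAT3 pathway median was 0.03 with arrays centred. No paired analysis was possible because the replicate numbers are unique over the series. The number of arrays limits precision. Of the 239 genes followed, 211 were called. Leaving out epithelial replicate 3 ended 24 of these calls (6 of which no other array ended), replicate 1 ended 16 and replicate 2 ended 14. Whether genes near or below the array median were above background is not known, since no detection call was used. The size of their differences is uncertain, also for genes named outside the largest changes.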

Other observations

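Gene lists not described above moved as follows. Proximal small intestine genes fell in 9 of 15 and rose in 1 (median -2.10), with adenosine deaminase (Ada, -2.92 ± 0.43) and the folate transporter Slc46a1 (-2.75 ± 0.29) lower and the transferrin receptor Tfrc, which dividing cells also use, higher (1.21 ± 0.46). Ileum genes fell in 13 of 17 and none rose (median -1.57); the vitamin B12 receptor Cubn fell by 3.13 ± 0.28 and the bile acid exporter subunit Slc51a by 2.85 ± 0.65. Colon genes fell in 6 of 21, a share near that of all genes (33.0%), and in 13 without tumours 9 and 15. Car4 was at -2.93 ± 0.44. Among the epithelial markers keratin 18 (Krt18, 1.82 ± 0.16) rose, the regulator Hnf4a fell by 0.85 ± 0.31, and the gut factor Cdx2 was at -1.17 ± 0.60 (limma, adjusted p = 0.116), with 6.55 and 7.0 in tumours 9 and 15 against 8.87 to 9.13 in the other tumours.

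Mast cell markers rose in 2 of 11 and fell in 1, with the mucosal protease Mcpt2 at 2.36 ± 0.55; the list mean was highest in tumours 7 and 15 (6.42 and 6.41, against 5.43 to 5.88). Of 3 red blood cell genes tested 1 fell, Epb42 (-0.45 ± 0.12).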
